A study of Pistacia vera with 20 samples.

Results

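Tattered hulls of the pistachio cultivar Golden Hills were compared with intact hulls of the same cultivar, both collected 133 days post anthesis from a commercial orchard. There were 3 RNA libraries of tattered hulls and 3 of intact hulls, 6 of the 20 libraries of the series, and they were taken by their sample labels. The hull is the skin and flesh (exocarp and mesocarp) around the shell of Pistacia vera, and whole hulls were extracted. The other libraries are cracked and intact hulls of the cultivar Lost Hills at 133 d (3 each), used here to show where tattered hulls differ, and unsplit 91 d hulls of either cultivar (4 libraries each), which only help to estimate the spread. Tattered hulls come from Golden Hills alone and cracked hulls from Lost Hills alone, so cultivar and kind of split cannot be told apart. The labels call the libraries biological replicates without naming trees, and p-values measure the spread between these samples.

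A hull keeps water in and fungi and insects out through a cuticle on its skin, and it holds together through pectin-rich walls between its cells. Where a plant surface breaks, many tissues lay down suberin, a polyester of long-chain fatty acids, glycerol and ferulic acid set in the wall beside lignin-like phenolics, which slows water loss. Its monomers are made in the endoplasmic reticulum, exported by ABCG transporters and linked outside the cell, where lipid transfer proteins and GDSL esterases act. Walls are loosened by expansins and by enzymes that cut pectin, and are stiffened by peroxidases and laccases that couple phenolics.

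Gene reads numbered 16502713 to 18297851 per library over the 6 libraries, and 22377 to 22869 genes had a read. Values are FPKM, reads per gene scaled by gene length and library size, and 1 FPKM stood for about 16.1 reads at the median gene length of 1017 bases. Principal component 1 of the 6 libraries carried 61.45% of their variance and parted tattered from intact hulls, and component 2 carried 18.37% and set the replicate 1 library of both groups apart. In intact replicate 1, 351 genes were at least 2-fold higher and 573 at least 2-fold lower than in both other intact libraries. The same count gave 202 and 318 genes for tattered replicate 1, and 58 to 118 for the other 4 libraries. Some 91 d libraries held reads of genes that at 133 d were read in the other cultivar alone: 14 of 16 such genes in replicate 2 of Lost Hills, 12 of 13 in replicate 2 of Golden Hills and 11 of 13 in its replicate 3, against 0 to 4 in the other 91 d libraries.

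Markers of tissues inside the fruit and of cell layers of the hull were summed in each library. The 29 kernel storage genes summed to between 1060 and 1245 FPKM in tattered hulls and between 813 and 1208 FPKM in intact hulls, mostly from Peroxygenase 1, and 1 of the 16 tested was called. That gene, an oleosin (evm_TU_ptg000001l_1636), had 2.39, 13.2 and 13.2 FPKM in tattered hulls, against 0.288, 0.721 and 1.21 FPKM in intact hulls. The median log2 fold change of the 16 tested was -0.14. The 2S albumins had at most 0.442 FPKM in any tattered library. In intact hulls 1 of them (evm_TU_ptg000009l_2501) had 4.29, 0.538 and 0.693 FPKM, against 0.143, 0 and 0 FPKM in tattered hulls. It was not called (log2 fold change -1.2, limma adjusted p = 0.358). Of 17 markers of shell secondary walls, summing to 43.3 to 58.6 FPKM in tattered hulls and 33.2 to 39.0 FPKM in intact hulls, NAC domain-containing protein 10 was called (log2 fold change 0.99, adjusted p = 0.00561), and the cellulose synthases CESA4, CESA7 and CESA8 reached at most 1.25 FPKM in any of the 6 libraries. The 36 epidermis markers summed to 4131 to 5758 FPKM in tattered hulls and 2461 to 3846 FPKM in intact hulls, mostly from non-specific lipid-transfer proteins. Of 14 tested, 3 were called higher, and 1 without tattered replicate 2, intact replicate 2 or intact replicate 3. Among the others, GPAT6 was called (log2 fold change 0.84). PROTODERMAL FACTOR 2 genes (0.11 and -0.33), 3-ketoacyl-CoA synthase 6 (0.15) and ANTHOCYANINLESS 2 (0.43) were not. Green tissue markers summed to 408 to 641 FPKM in tattered hulls and 479 to 580 FPKM in intact hulls, ranges that overlap. The part of other tissues in the results was not tested. In whole hulls, a change in the number of cells of a type cannot be told apart from a change in RNA per cell.

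More of the large changes were rises than falls. A gene is called here at a Benjamini-Hochberg adjusted p under 0.05 in limma, fitted on log2(FPKM + 1) over all 20 libraries. Of 19716 genes tested, 3281 were called (16.6%), with 1831 higher in tattered hulls (9.29%) and 1450 lower (7.35%). At 2-fold or more, 791 were higher (4.01%) and 154 lower (0.781%), and beyond a log2 fold change of 3 in either direction 98 were higher and 1 was lower. The 791 genes took 5.50%, 5.88% and 5.67% of the reads of the tattered libraries, against 1.50%, 1.90% and 1.93% of those of the intact libraries. The 154 genes took 0.395%, 0.364% and 0.403% of reads in tattered hulls, against 1.02%, 0.974% and 0.977% in intact hulls. At 6900 of the 19716 tested genes (35.0%) the tattered and intact libraries did not overlap. Genes named by rule for their change in Golden Hills had to show this, so it is no further support for them.

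The count and its balance depend on libraries and scaling. Without intact replicate 1 the calls numbered 2154 (1250 higher, 904 lower), without tattered replicate 2 they numbered 1689, and without the 3 libraries of 91 d with reads of the other cultivar 2615. After rescaling to TPM the all-gene median was -0.13, where it was 0.01 as deposited, and 26.2% of calls were higher, against 55.8% as deposited. At 2-fold or more, TPM gave 677 higher and 372 lower, an added 0.1 FPKM in place of 1 gave 940 higher and 305 lower, and voom 899 higher and 257 lower.

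**Figure D1:**
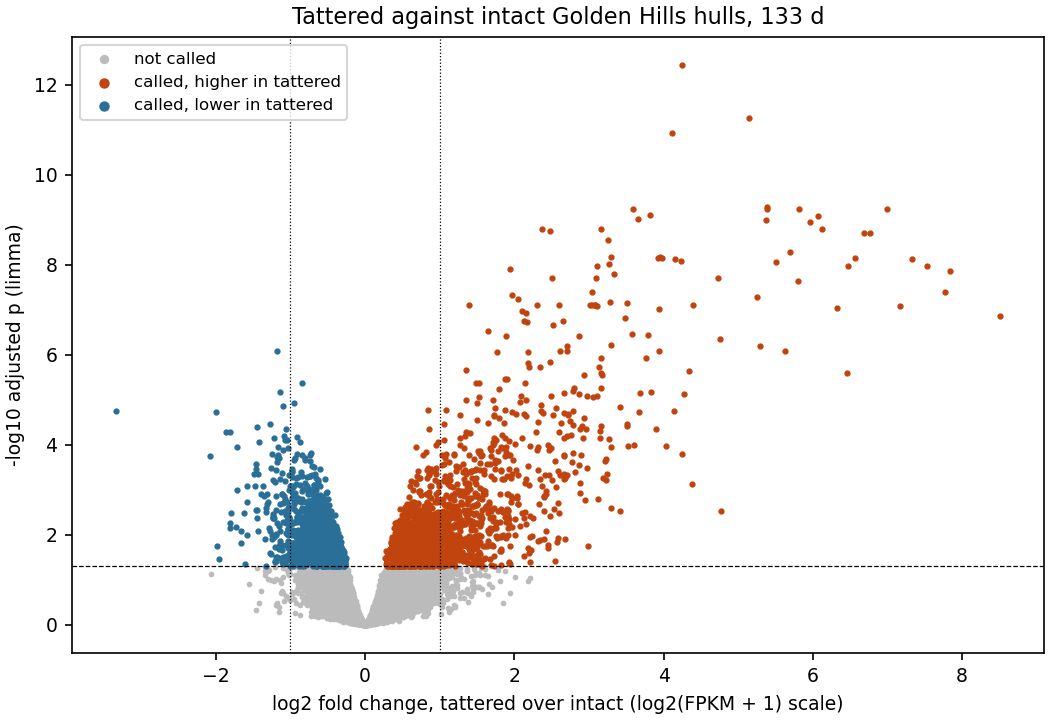
Each point is 1 of the 19716 tested genes, with its log2 fold change (tattered over intact Golden Hills hulls, n = 3 each) on the x axis and -log10 of its limma adjusted p on the y axis; orange points were called higher, blue points lower and grey points were not called. Dotted lines mark 2-fold and the dashed line the threshold: beyond a log2 fold change of 3 in either direction lie 98 called genes that were higher and 1 that was lower.

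Some genes were read in tattered hulls and next to nowhere in intact ones. By a rule chosen after the values were seen, 42 genes had at least 5 FPKM in every tattered library and at most 3 reads in every intact library, and no gene showed the reverse. Of these, 23 had no read at all in intact hulls. Among the 21 with a protein name were enzymes of suberin, lipid transfer proteins, Laccase-5, Dirigent protein 20, Pectinesterase 2, MYB102 and WRKY43, which are described below with their groups. The 21 without a name were short, with 222 to 948 bases (median 351), where all 4675 tested genes without a name had a median of 921 bases. For genes at or near 0 in intact hulls, the log2 fold change depends on the 1 FPKM added to every value and is no bound. Where intact hulls had no read, a lower bound on the fold is given, computed with 3 reads in each intact library.

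Suberin genes from fatty acid elongation to the transfer of ferulate were called higher in tattered hulls. Of 27 suberin genes, 15 were tested, and 8 were called higher and none lower, with a median log2 fold change of 0.75 against 0.01 over all tested genes. Without intact replicate 1, 6 were called higher and 1 lower. This list, and those of cutin and wax, CASP-like and GDSL genes, were drawn up after values were seen, as were the genes named from them. KCS20, CYP86A1, GPAT5 and ABCG1 were also picked in that way. The wider list of suberin, cutin and wax enzymes had 14 of 53 called higher (26.4%) and none lower. The plot of suberin pathway genes by library shows them in the order of the pathway.

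3-ketoacyl-CoA synthase 20 (KCS20, evm_TU_ptg000022l_2119), which in Arabidopsis lengthens the fatty acids of suberin, had 65.3, 68.7 and 81.7 FPKM in tattered hulls, against 28.1, 22.3 and 26.1 FPKM in intact hulls (log2 fold change 1.46, SE 0.28, adjusted p = 0.00227). Cytochrome P450 86A1 (evm_TU_ptg000016l_840), a fatty acid omega-hydroxylase, had 15.3, 3.77 and 5.06 FPKM in tattered hulls, against 0, 0.0784 and 0 FPKM in intact hulls (2.92, SE 0.39, adjusted p = 6.91e-05). The groups did not overlap for either gene, but tattered replicate 1 stood well above the other tattered libraries for CYP86A1. Cytochrome P450 86B1 (evm_TU_ptg000024l_567, contig ptg000024l, 5490959 to 5492834), the hydroxylase of very long chains, had 64.3, 54.6 and 48.8 FPKM in tattered hulls and no read in intact hulls, at least 433-fold higher (5.82, SE 0.30, adjusted p = 5.76e-10).

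Glycerol-3-phosphate acyltransferase 5 (GPAT5, evm_TU_ptg000009l_391), which joins these acids to glycerol, had 54.5, 34.4 and 38.2 FPKM in tattered hulls, against 0, 0 and 0.0847 FPKM in intact hulls (5.37, SE 0.29, adjusted p = 1.02e-09). Omega-hydroxypalmitate O-feruloyl transferase (evm_TU_ptg000019l_2938, contig ptg000019l, 28457736 to 28459751), which attaches ferulate, had 69.5, 70.5 and 66.1 FPKM in tattered hulls, against 0, 0.126 and 0 FPKM in intact hulls (6.07, SE 0.32, adjusted p = 8.13e-10). Both were on in all 3 tattered libraries at levels close to each other, and all but absent from intact hulls. ABC transporter G family member 1 (evm_TU_ptg000009l_568), whose Arabidopsis namesake exports suberin precursors, had 39.1, 34.6 and 42.5 FPKM in tattered hulls, against 4.12, 2.75 and 2.43 FPKM in intact hulls (3.29, SE 0.30, adjusted p = 6.18e-07).

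Of 23 tested cutin and wax genes 6 were called higher and none lower (median 0.31). Fatty acyl-CoA reductase 3 (evm_TU_ptg000016l_179), which in Arabidopsis makes the fatty alcohols of wax, had 9.07, 7.55 and 7.56 FPKM in tattered hulls, against 0.0332, 0 and 0 FPKM in intact hulls. Glycerol-3-phosphate acyltransferase 8 (evm_TU_ptg000019l_418), a cutin enzyme in Arabidopsis, had 21.9, 20.3 and 24.2 FPKM in tattered hulls, against 4.55, 4.13 and 5.18 FPKM in intact hulls (2.04, SE 0.15, adjusted p = 5.7e-08). For both the 3 libraries of each group lay close together and far from the other group.

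Lipid transfer proteins carry fatty acids and waxes across the wall, and those anchored to the membrane by GPI led the rises. Of 31 tested, 12 were called higher and none lower (median 0.51). Non-specific lipid transfer protein GPI-anchored 5 (LTPG5, evm_TU_ptg000019l_3180, contig ptg000019l, 30763541 to 30764199) had 362, 452 and 391 FPKM in tattered hulls, against 2.32, 1.03 and 1.32 FPKM in intact hulls (7.32, SE 0.47, adjusted p = 7.42e-09). LTPG21 (evm_TU_ptg000022l_2036) had 140, 150 and 154 FPKM in tattered hulls, against 0.266, 0.1 and 0.155 FPKM in intact hulls (6.99, SE 0.35, adjusted p = 5.76e-10). A second LTPG5 gene on the first contig (evm_TU_ptg000019l_3175) had 118, 64.5 and 64.8 FPKM in tattered hulls and no read in intact hulls, at least 245-fold higher (6.32, SE 0.50, adjusted p = 9.2e-08). None of the 3 overlapped between groups, which the naming rule required.

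Beside LTPG21 lie 2 further genes named LTPG5, chosen after their values were seen. The first (evm_TU_ptg000022l_2034) had 561, 904 and 809 FPKM in tattered hulls, against 49.1, 51.9 and 43.6 FPKM in intact hulls (3.92, SE 0.25, adjusted p = 7.1e-09). The other (evm_TU_ptg000022l_2035) had 67.4, 46.0 and 36.9 FPKM in tattered hulls, against 0.358, 0.112 and 0.116 FPKM in intact hulls (5.38, SE 0.26, adjusted p = 5.13e-10). Similar copies may share reads, and how such reads were counted is not given in the sources used here. Among the epidermis markers, the abundant Non-specific lipid-transfer protein evm_TU_ptg000027l_181 had 2457, 3323 and 4218 FPKM in tattered hulls, against 2835, 1317 and 1517 FPKM in intact hulls. Its groups overlap, though it was called higher (log2 fold change 0.87, limma adjusted p = 0.0488).

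GDSL esterases, lipid hydrolases of which some build or break cutin and suberin in other plants, were called higher in 15 of 49 tested genes and lower in none (median 0.18). GDSL esterase/lipase At1g74460 (evm_TU_ptg000002l_967) had 121, 106 and 91.1 FPKM in tattered hulls, against 0.76, 0.385 and 0.453 FPKM in intact hulls (6.12, SE 0.35, adjusted p = 1.63e-09). CASP-like proteins belong to the family that marks the membrane under the Casparian strip, and 6 of 24 were called higher and 1 lower (median 0.23), with 3 higher without intact replicate 3. CASP-like protein 1C3 (evm_TU_ptg000019l_2099) had 28.7, 27.5 and 29.5 FPKM in tattered hulls, against 0.286, 1.61 and 0.139 FPKM in intact hulls (4.24, SE 0.28, adjusted p = 8.19e-09). A second gene of that name (evm_TU_ptg000017l_1728) had 18.4, 14.4 and 11.4 FPKM in tattered hulls and no read in intact hulls, at least 38.9-fold higher.

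**Figure D2:**
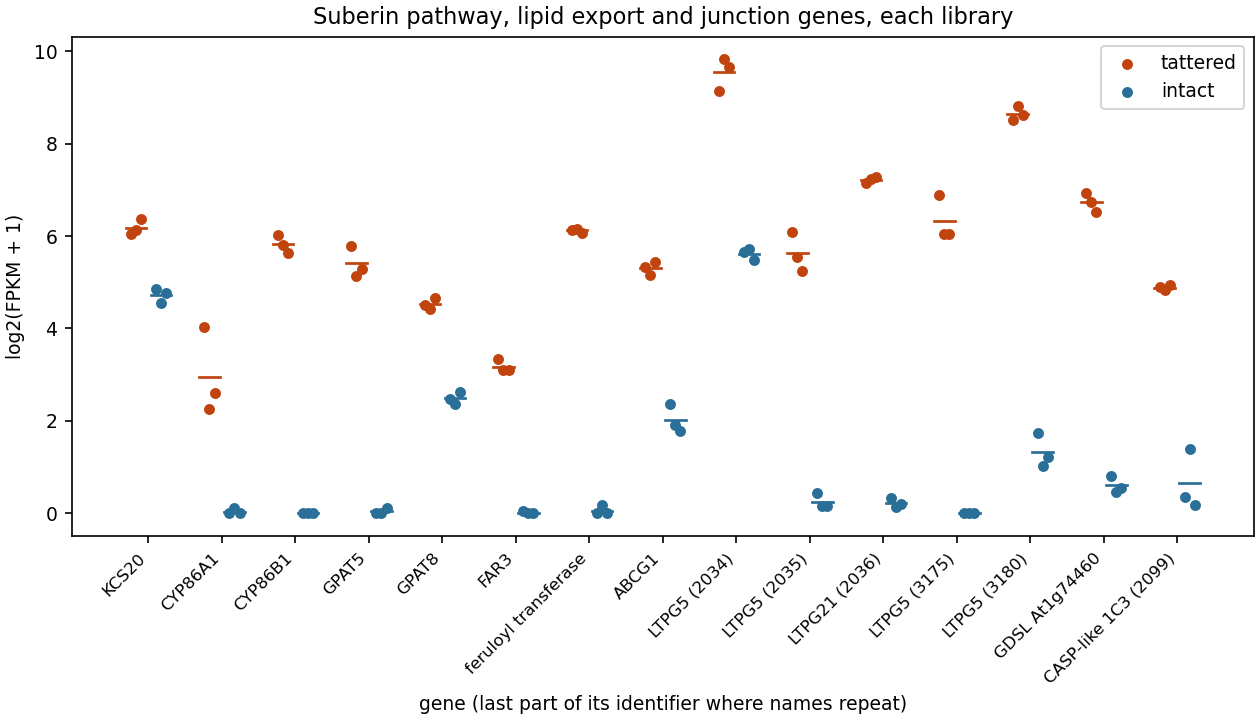
Points are single libraries on a log2(FPKM + 1) axis, tattered (orange) left of intact (blue) for each gene, with a line at the mean of 3 libraries; genes run from fatty acid synthesis through export to lipid transfer, esterase and CASP-like proteins. The groups do not overlap for any gene shown, but the genes were picked by a rule that required this or after their values were seen. The intact libraries of CYP86B1 and of 1 LTPG5 gene sit at 0.

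Several enzymes that couple phenolics outside the cell were called higher. Class III peroxidases, which oxidise phenolics with hydrogen peroxide, were called higher in 10 of 29 tested genes and lower in none (median 0.30). Peroxidase 4 (evm_TU_ptg000009l_55) had 200, 147 and 156 FPKM in tattered hulls, against 1.09, 0.41 and 0.847 FPKM in intact hulls (6.57, SE 0.42, adjusted p = 7.1e-09). Cationic peroxidase 1 (evm_TU_ptg000027l_148) had 132, 103 and 119 FPKM in tattered hulls, against 10.3, 4.49 and 8.14 FPKM in intact hulls (3.84, SE 0.42, adjusted p = 6.83e-06). Both were therefore abundant in every tattered library and present at a low level in every intact one.

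Laccases oxidise monolignols with oxygen, and dirigent proteins steer the coupling of the radicals. Of 21 tested genes of these families 7 were called higher and 1 lower (median 0.37). Laccase-7 (evm_TU_ptg000027l_379) had 116, 153 and 147 FPKM in tattered hulls, against 1.1, 0.0356 and 0.11 FPKM in intact hulls (6.69, SE 0.39, adjusted p = 1.92e-09). Dirigent protein 23 (evm_TU_ptg000020l_2169) had 84.8, 95.7 and 77.8 FPKM in tattered hulls, against 0.868, 1.63 and 2.02 FPKM in intact hulls (5.14, SE 0.19, adjusted p = 5.43e-12). Neither pair of groups overlapped, a condition of the naming rule. With only the compared groups in the fit, the adjusted p of Dirigent protein 23 was 5.72e-05 (limma). Laccase-5 and Dirigent protein 20, taken after their values were seen, had 12.6 to 14.2 and 8.07 to 16.5 FPKM in tattered hulls, and at most 0.029 FPKM in any intact library.

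Phenylpropanoid enzymes, which supply ferulate, monolignols and flavonoids, were called higher in 14 of 58 tested genes and lower in 2 (median 0.25). Phenylalanine ammonia-lyase (evm_TU_ptg000009l_700), the entry enzyme, had 45.5, 27.2 and 30.9 FPKM in tattered hulls, against 2.2, 1.21 and 0.79 FPKM in intact hulls (3.90, SE 0.50, adjusted p = 4.34e-05). 4-coumarate--CoA ligase 2 (evm_TU_ptg000012l_370), which activates the acids it leads to, had 24, 13 and 12.4 FPKM in tattered hulls, against 0.452, 0.0849 and 0.117 FPKM in intact hulls (3.79, SE 0.33, adjusted p = 3.68e-07). Replicate 1 was the highest tattered library for both, and no intact library came near.

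Flavonoid and anthocyanin enzymes had 11 of 28 tested genes called higher and none lower, with a median log2 fold change of 0.77. Without intact replicate 1, the list had 6 higher calls. Flavonoid 3',5'-hydroxylase (evm_TU_ptg000008l_893), which sets the hydroxyl pattern of the ring, had 22.4, 15.2 and 19.5 FPKM in tattered hulls, against 0.753, 1.88 and 1.35 FPKM in intact hulls (3.12, SE 0.58, adjusted p = 0.00162). Chalcone synthase 1 (evm_TU_ptg000022l_1490), the first enzyme of the branch, had 58.6, 39.9 and 47 FPKM in tattered hulls, against 7.17, 7.3 and 12.5 FPKM in intact hulls (2.33, SE 0.45, adjusted p = 0.00209). It is 1 of 5 neighbouring genes with this name, described below.

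Pectin genes moved both ways. Of 200 pectin breakdown genes, 57 were tested, with 12 called higher, 5 lower and a median of 0.03 as deposited and -0.09 in TPM. Pectinesterase 2 (evm_TU_ptg000019l_194), which strips methyl groups from pectin, had 34.3, 13.1 and 15.8 FPKM in tattered hulls and no read in intact hulls, at least 202-fold higher (4.34, SE 0.43, adjusted p = 2.27e-06). A pectate lyase (evm_TU_ptg000019l_2786), which cuts pectin so treated, had 16.7, 8.48 and 10 FPKM in tattered hulls, against 0.952, 0.546 and 0.256 FPKM in intact hulls (2.98, SE 0.33, adjusted p = 8.07e-06). Beta-galactosidase 8 (evm_TU_ptg000016l_447), which trims pectin side chains, had 32.3, 33.4 and 30.2 FPKM in tattered hulls, against 66, 45.5 and 55.4 FPKM in intact hulls (-0.77, SE 0.16, adjusted p = 0.00372). The first pair of enzymes was all but off in intact hulls, whereas the galactosidase stayed well expressed in both groups.

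The largest fall of any gene was that of Pectinesterase inhibitor 10 (evm_TU_ptg000004l_863), which blocks pectin demethylation. It had 1.66, 2.08 and 3.19 FPKM in tattered hulls, against 12.5, 58.9 and 42.8 FPKM in intact hulls (-3.34, SE 0.39, adjusted p = 1.76e-05). Intact replicate 1 was the lowest of its group and still above every tattered library, as the naming rule required. It was the only 1 called of 5 tested inhibitors.

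Wall loosening proteins were called higher in 10 of 49 tested genes and lower in 1 (median 0.42). Expansin-A4 (evm_TU_ptg000009l_402), which loosens bonds between wall polymers, had 29.6, 37.8 and 32.9 FPKM in tattered hulls, against 1.85, 1.74 and 1.41 FPKM in intact hulls (3.69, SE 0.40, adjusted p = 6.99e-06). Expansin-A6 (evm_TU_ptg000016l_654) had 18.2, 12.4 and 17.1 FPKM in tattered hulls, against 2.27, 1.15 and 0.687 FPKM in intact hulls (2.87, SE 0.31, adjusted p = 7.47e-06). Both were low in intact hulls and moderate in all tattered ones.

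Cellulose and callose synthesis had more falls than rises, with 11 of 39 tested genes called lower (28.2%) and 2 higher, and a median of -0.25. Without intact replicate 1 or without tattered replicate 2, 6 were called lower and 1 higher. Cellulose synthase-like protein B4 (evm_TU_ptg000019l_1870) had 21.8, 28.2 and 31.1 FPKM in tattered hulls, against 43.6, 78.6 and 78.6 FPKM in intact hulls (-1.24, SE 0.30, adjusted p = 0.01). Protein CELLULOSE SYNTHASE INTERACTIVE 3 (evm_TU_ptg000001l_3318), of the family that ties cellulose synthase to microtubules, had 7.11, 5.9 and 8 FPKM in tattered hulls, against 19.9, 12.2 and 13.1 FPKM in intact hulls (-0.98, SE 0.16, adjusted p = 0.0004). Of the 11 falls, 1 reached 2-fold, as did both rises. Cellulose synthase-like protein E1 (evm_TU_ptg000009l_2924) had 8.48, 8.06 and 7.5 FPKM in tattered hulls, against 2.98, 2.8 and 3.32 FPKM in intact hulls (1.16, SE 0.21, adjusted p = 0.00129). Cellulose synthase A catalytic subunit 2 (evm_TU_ptg000001l_3572) had 59, 48.2 and 49.3 FPKM in tattered hulls, against 21, 25.6 and 25.4 FPKM in intact hulls (1.09, SE 0.30, adjusted p = 0.021), and lost its call in TPM and without intact replicate 1 or tattered replicate 1 or 2.

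Defence proteins had 23 of 122 tested genes called higher and 1 lower (median 0.38), and the higher calls numbered 10 to 14 without tattered replicate 2 or 3 or any 1 intact library. Chitinase 4 (evm_TU_ptg000022l_413), an enzyme that cuts fungal walls, had 51.2, 32.7 and 33.4 FPKM in tattered hulls, against 0.568, 1.71 and 0.55 FPKM in intact hulls (4.39, SE 0.34, adjusted p = 7.64e-08). Endochitinase EP3 (evm_TU_ptg000022l_422), which lies close to it on the contig, had 54.4, 71.9 and 71.2 FPKM in tattered hulls, against 4.55, 6.94 and 7.28 FPKM in intact hulls (3.22, SE 0.48, adjusted p = 0.000229). The groups of both were apart, as the naming rule required.

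Redox enzymes were called higher in 24 of 75 tested genes and lower in 2 (median 0.31). The glutathione S-transferase parA (evm_TU_ptg000012l_152), of a family that conjugates glutathione to reactive compounds, had 144, 350 and 325 FPKM in tattered hulls, against 3.42, 4.4 and 11.4 FPKM in intact hulls (5.26, SE 0.39, adjusted p = 5.3e-08). A phospholipid hydroperoxide glutathione peroxidase (evm_TU_ptg000010l_433), which reduces oxidised membrane lipids, had 136, 332 and 284 FPKM in tattered hulls, against 8.82, 12.4 and 12.6 FPKM in intact hulls (4.28, SE 0.47, adjusted p = 7.47e-06). Here tattered replicate 1 was the lowest of its group, where for several wall genes above it was the highest.

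Heat shock proteins, which keep other proteins folded, had 28 of 81 tested genes called higher and 4 lower, with a median of 0.52. Over these genes the mean log2(FPKM + 1) was 4.31, 4.09 and 4.11 in tattered hulls, against 3.32, 3.55 and 3.53 in intact hulls. Over all tested genes it was 3.51, 3.53 and 3.53 in tattered hulls, against 3.43, 3.44 and 3.45 in intact hulls. The groups did not overlap in either, so the lack of overlap is not particular to heat shock genes, though the gap was wider in them. Of the list 34.6% was called higher, against 9.29% of all tested genes. The 17.8 kDa class I heat shock protein (evm_TU_ptg000019l_2788) had 33.8, 7.86 and 6.34 FPKM in tattered hulls, against 0.618, 0.435 and 0.15 FPKM in intact hulls (3.24, SE 0.52, adjusted p = 0.000444). The 22.0 kDa heat shock protein (evm_TU_ptg000029l_238) had 41.8, 4.85 and 3.89 FPKM in tattered hulls, against 0, 0.216 and 0.334 FPKM in intact hulls (3.19, SE 0.52, adjusted p = 0.000536), and it was not called with only the compared groups in the fit. Tattered replicate 1 was several times above the other tattered libraries in both. Heat stress transcription factor B-3 (evm_TU_ptg000004l_220), taken after its values were seen, had 461, 628 and 601 FPKM in tattered hulls, against 82.4, 210 and 211 FPKM in intact hulls (1.85, SE 0.37, adjusted p = 0.00305).

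Channels and carriers changed at single genes. Of 23 tested aquaporins 5 were called higher and 1 lower, with a median of 0.21 as deposited and 0.03 in TPM. Aquaporin TIP1-3 (evm_TU_ptg000016l_574), of the family that moves water across the vacuole membrane, had 26.7, 63.6 and 75.2 FPKM in tattered hulls, against 0, 0 and 0.127 FPKM in intact hulls (5.63, SE 0.52, adjusted p = 8.38e-07). A second gene of that name (evm_TU_ptg000009l_494) had 148, 442 and 385 FPKM in tattered hulls, against 5.3, 14.3 and 12.2 FPKM in intact hulls (4.76, SE 0.96, adjusted p = 0.00296). Replicate 1 was the lowest tattered library for both.

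Sugar and starch genes had 7 of 95 called higher and 10 lower (median -0.11), 7.37% and 10.5% of the list, near the shares of all genes. The lower calls numbered 4 without tattered replicate 2 and 6 without tattered replicate 1, the higher calls 4 without tattered replicate 3, intact replicate 1 or intact replicate 3, and TPM gave 6 higher and 17 lower. The sugar transporter SWEET1 (evm_TU_ptg000001l_3458) had 158, 218 and 198 FPKM in tattered hulls, against 11.7, 15.7 and 17.3 FPKM in intact hulls (3.60, SE 0.49, adjusted p = 0.0001). Sugar transport protein 13 (evm_TU_ptg000022l_1983), a hexose importer in Arabidopsis, had 42.2, 37.1 and 35.5 FPKM in tattered hulls, against 8.22, 6.83 and 12 FPKM in intact hulls (2.00, SE 0.43, adjusted p = 0.00454). Both carriers were higher in all tattered libraries, a condition of the naming rule.

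Hormone lists had calls in both directions, as did all tested genes (9.29% higher and 7.35% lower). By list, 6.82% (jasmonate) to 15.0% (ethylene) were called higher. From 4.17% (abscisic acid) to 13.5% (auxin) were called lower. In ethylene synthesis and perception 3 of 20 tested genes were called higher and 2 lower (median -0.06). 1-aminocyclopropane-1-carboxylate synthase 1 (evm_TU_ptg000019l_460), which makes the ethylene precursor, had 2.63, 8.98 and 7.44 FPKM in tattered hulls, against 0.0895, 0.21 and 0.303 FPKM in intact hulls (2.49, SE 0.35, adjusted p = 0.00012). The oxidase that completes the synthesis (evm_TU_ptg000019l_1831) had 293, 471 and 402 FPKM in tattered hulls, against 129, 139 and 117 FPKM in intact hulls (1.57, SE 0.52, adjusted p = 0.0488). Its groups did not overlap, which the naming rule required, and its call was lost in 15 of 20 alternative settings.

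Jasmonate genes had 3 of 44 called higher and 3 lower (median 0.02 as deposited, -0.06 in TPM). 12-oxophytodienoate reductase 2 (evm_TU_ptg000001l_4017), of the family that reduces jasmonate precursors, had 38.5, 65.3 and 56.4 FPKM in tattered hulls, against 4.55, 5.37 and 5.9 FPKM in intact hulls (3.09, SE 0.22, adjusted p = 1.98e-08). Lipoxygenase 6 (evm_TU_ptg000024l_86), which oxidises the fatty acids that jasmonate is made from, had 12.9, 9.47 and 10.9 FPKM in tattered hulls, against 19.9, 20.5 and 17.2 FPKM in intact hulls (-0.75, SE 0.15, adjusted p = 0.00324). The reductase was thus far above intact hulls in all tattered libraries, and the lipoxygenase below them.

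Of 74 auxin genes 9 were called higher and 10 lower (median -0.14). The auxin-conjugating enzyme GH3.6 (evm_TU_ptg000009l_2375) had 28, 59 and 56.8 FPKM in tattered hulls, against 1.99, 1.37 and 2.57 FPKM in intact hulls (3.99, SE 0.25, adjusted p = 6.99e-09). Auxin response factor 9 (evm_TU_ptg000019l_569), a transcription factor, had 4.85, 6.01 and 5.42 FPKM in tattered hulls, against 10.7, 12.8 and 12.6 FPKM in intact hulls (-1.02, SE 0.20, adjusted p = 0.00242). Gibberellin genes had 4 of 28 called higher and 3 lower (median 0.30), and abscisic acid and dehydration genes 3 of 24 higher and 1 lower (median 0.09, and -0.08 in TPM). Gibberellin-regulated protein 11 (evm_TU_ptg000010l_613) had 39.5, 61.2 and 49.9 FPKM in tattered hulls, against 5.54, 5.74 and 9.33 FPKM in intact hulls (2.71, SE 0.25, adjusted p = 8.36e-07).

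Among transcription factors, calls in the WRKY, ERF and MYB families were nearly all rises. WRKY genes, many of which act in defence, had 14 of 49 called higher and none lower (median 0.37), and 9 higher without tattered replicate 2. Probable WRKY transcription factor 43 (evm_TU_ptg000019l_467) had 11.3, 6.11 and 5.88 FPKM in tattered hulls and no read in intact hulls, at least 16.8-fold higher (3.08, SE 0.24, adjusted p = 7.64e-08). AP2 and ERF factors had 13 of 74 called higher and none lower as deposited (median 0.36), and 6 higher and 3 lower in TPM. Without 1 of tattered replicates 2 and 3 or intact replicates 1 and 3, 4 to 7 were called higher. Ethylene-responsive transcription factor ERF114 (evm_TU_ptg000019l_1188) had 16.9, 21.5 and 18.8 FPKM in tattered hulls, against 0.663, 0.224 and 0.95 FPKM in intact hulls (3.66, SE 0.20, adjusted p = 9.37e-10).

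MYB factors, which include activators of lignin, suberin and flavonoid genes, had 15 of 66 called higher and 1 lower (median 0.13). MYB102 (evm_TU_ptg000019l_2016) had 17.1, 20.5 and 19.7 FPKM in tattered hulls, against 0, 0.168 and 0 FPKM in intact hulls (4.25, SE 0.13, adjusted p = 3.58e-13). That was the smallest adjusted p of any gene in the fit over all 20 libraries, whose spread is pooled over all groups. With only the compared groups in the fit it was 3.63e-05 (limma). MYB63 (evm_TU_ptg000003l_1315), a lignin activator in Arabidopsis, had 10.3, 6.07 and 4.88 FPKM in tattered hulls, against 0.28, 0.262 and 0.0542 FPKM in intact hulls (2.70, SE 0.25, adjusted p = 6.38e-07). The groups were apart in both, as the naming rule required. NAC factors had 7 of 57 called higher and 1 lower (median 0.10), and 6 higher and 6 lower in TPM (median -0.03). The 1 lower call was lost without intact replicate 2 or any 1 tattered library. Protein ATAF2 (evm_TU_ptg000013l_921), a NAC factor induced by wounding in Arabidopsis, had 39.9, 40.7 and 39.5 FPKM in tattered hulls, against 7.05, 17.7 and 13.4 FPKM in intact hulls (1.67, SE 0.32, adjusted p = 0.00211).

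The share of each list that was called is shown in the plot by list, beside the share over all genes (9.29% higher and 7.35% lower). Lists of growth and photosynthesis differed among themselves. Photosystem and chlorophyll genes had 2 of 65 called higher and 5 lower (median -0.11), cell division and histone genes 7 of 70 higher and 3 lower (median 0.15), and proteases of senescence and cell death 6 of 87 higher and 2 lower (median 0.04, and -0.03 in TPM). Terpene synthesis had 2 of 51 higher and none lower (median 0.00), and none higher and 2 lower in TPM. Cytosolic ribosomal proteins had 48 of 164 called higher (29.3%), none of them 2-fold, with a median of 0.29. In TPM 9 were called higher and 4 lower, and as deposited 9 were higher without tattered replicate 2, 23 without tattered replicate 1 and 21 without intact replicate 3. Many counts of single digits in these growth and hormone lists changed by more than 1.5 times, up or down, when 1 library was left out. Those of cell division fell to 1 higher without tattered replicate 2.

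The gene lists also held proteases that stood out singly. Aspartic proteinase nepenthesin-1 (evm_TU_ptg000013l_973) had 8.15, 7.7 and 7.4 FPKM in tattered hulls, against 0, 0.0347 and 0 FPKM in intact hulls (3.11, SE 0.21, adjusted p = 1.07e-08). Subtilisin-like protease SBT1.4 (evm_TU_ptg000021l_289) had 64.2, 44.7 and 50.8 FPKM in tattered hulls, against 114, 108 and 107 FPKM in intact hulls (-1.04, SE 0.22, adjusted p = 0.0038). The first had 1 read in all in the intact libraries, and the other was well expressed in both groups and lower in every tattered library.

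**Figure D3:**
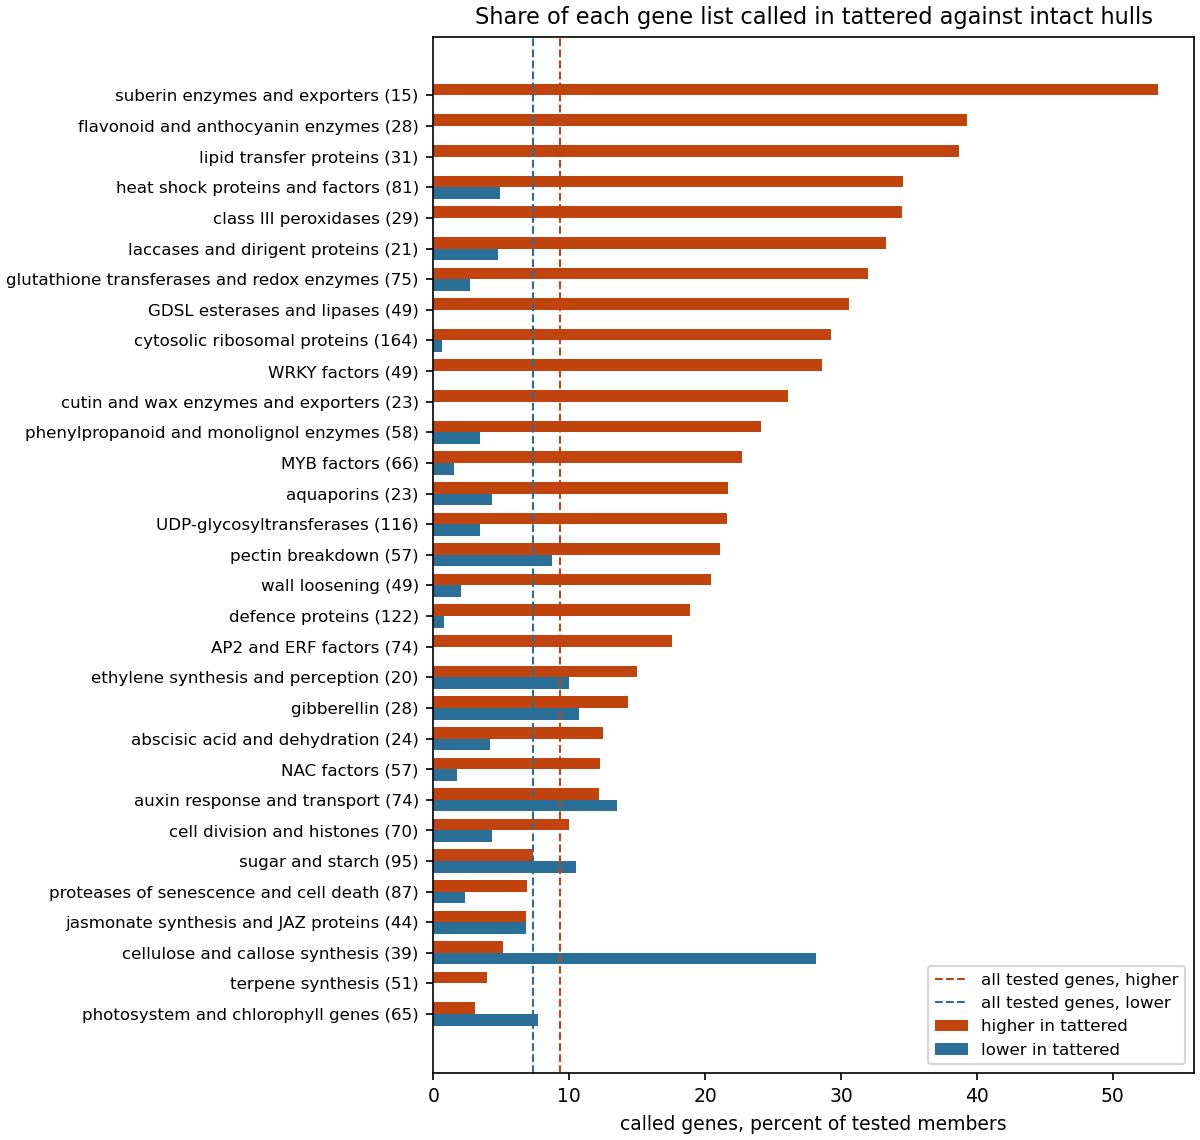
Bars give the percent of tested members of each gene list (number tested in parentheses) that were called higher (orange) or lower (blue) in tattered than in intact hulls, and dashed lines give the same for all 19716 tested genes, 9.29% and 7.35%. Suberin genes, at 53.3% higher, and cellulose and callose genes, at 28.2% lower, are at the 2 ends. The suberin, cutin and wax, and GDSL lists were drawn up after values were seen, so the place of suberin genes is no test. The wider list of suberin, cutin and wax enzymes, not shown, had 26.4% higher.

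UDP-glycosyltransferases, which attach sugars to small molecules, had 25 of 116 called higher and 4 lower (median 0.31), with 15 higher without intact replicate 1 and 16 without tattered replicate 3. UDP-glycosyltransferase 72E1 had the second largest fall of the genes called. It (evm_TU_ptg000013l_1739) glucosylates monolignol aldehydes in Arabidopsis, and had 3.92, 4.72 and 5.94 FPKM in tattered hulls, against 21.9, 20.9 and 28.1 FPKM in intact hulls (-2.07, SE 0.30, adjusted p = 0.000174). UTP--glucose-1-phosphate uridylyltransferase 3 (evm_TU_ptg000009l_151), which makes UDP-glucose in the plastid, had 7.87, 8.37 and 8.48 FPKM in tattered hulls, against 23, 49 and 40.4 FPKM in intact hulls (-1.99, SE 0.24, adjusted p = 1.87e-05). Zeatin O-xylosyltransferase (evm_TU_ptg000004l_244), a cytokinin-modifying enzyme, had 13.8, 10.7 and 9.95 FPKM in tattered hulls, against 40.6, 42.6 and 49.9 FPKM in intact hulls (-1.87, SE 0.24, adjusted p = 5.29e-05). All 3 were several times lower in every tattered library and were still read there.

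The largest rise of any gene lay in a group of short genes with neither a protein name nor a domain on contig ptg000013l. Within 50 kb of it lie 12 genes, of which 8 were tested, 5 called higher and 1 lower. The 5 span 33.7 kb (17120950 to 17154632) and are 390 to 456 bases long. Gene evm_TU_ptg000013l_1162 had 517, 359 and 380 FPKM in tattered hulls, against 0.152, 0.286 and 0 FPKM in intact hulls (8.50, SE 0.69, adjusted p = 1.38e-07). Gene evm_TU_ptg000013l_1165 had 260, 151 and 158 FPKM in tattered hulls and no read in intact hulls, at least 395-fold higher (7.53, SE 0.50, adjusted p = 1.07e-08).

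The other 3 genes of the group had 85.4 to 352 FPKM in tattered hulls and at most 0.847 FPKM in any intact library. Together the 5 genes summed to between 1034 and 1634 FPKM in tattered hulls and between 0.137 and 1.45 FPKM in intact hulls, and replicate 1 was the highest tattered library for each. Other genes of the window behaved differently. Ubiquitin carboxyl-terminal hydrolase 17 (evm_TU_ptg000013l_1157) had 4.67, 5.14 and 6.32 FPKM in tattered hulls, against 10.6, 9.24 and 8.89 FPKM in intact hulls (-0.73, SE 0.11, adjusted p = 0.000169). Genes of nearly one length side by side may be copies that share reads, and whether they code for protein is not given in the sources used here.

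Neighbouring genes also rose together elsewhere. By a rule chosen after the values were seen, runs of at least 4 tested genes in a row, each called and 2-fold or more in the same direction, numbered 5 for rises (27 genes) and 1 for falls (4 genes). The longest, on contig ptg000022l, held 9 unnamed genes of 279 to 417 bases over 449 kb, which summed to between 185 and 405 FPKM in tattered hulls and between 0 and 0.401 FPKM in intact hulls. A second unnamed run on that contig, 4 genes over 83.1 kb, was also read in intact hulls, with 2054 to 3410 FPKM in tattered hulls against 188 to 457 FPKM in intact hulls. Chalcone synthase 1 genes formed a run of 5 over 52.5 kb, with 210 to 294 FPKM in tattered hulls against 36.3 to 76.5 FPKM in intact hulls. GDSL esterase genes formed a run of 4 over 13.6 kb on contig ptg000021l, with 54.0 to 95.9 FPKM in tattered hulls against 6.15 to 8.35 FPKM in intact hulls. The run of falls, 48.0 kb on contig ptg000001l, held Proline-rich receptor-like protein kinase PERK12 and the ACT domain protein ACR3, and summed to 56.7 to 66.6 FPKM in tattered hulls against 162 to 172 FPKM in intact hulls.

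**Figure D4:**
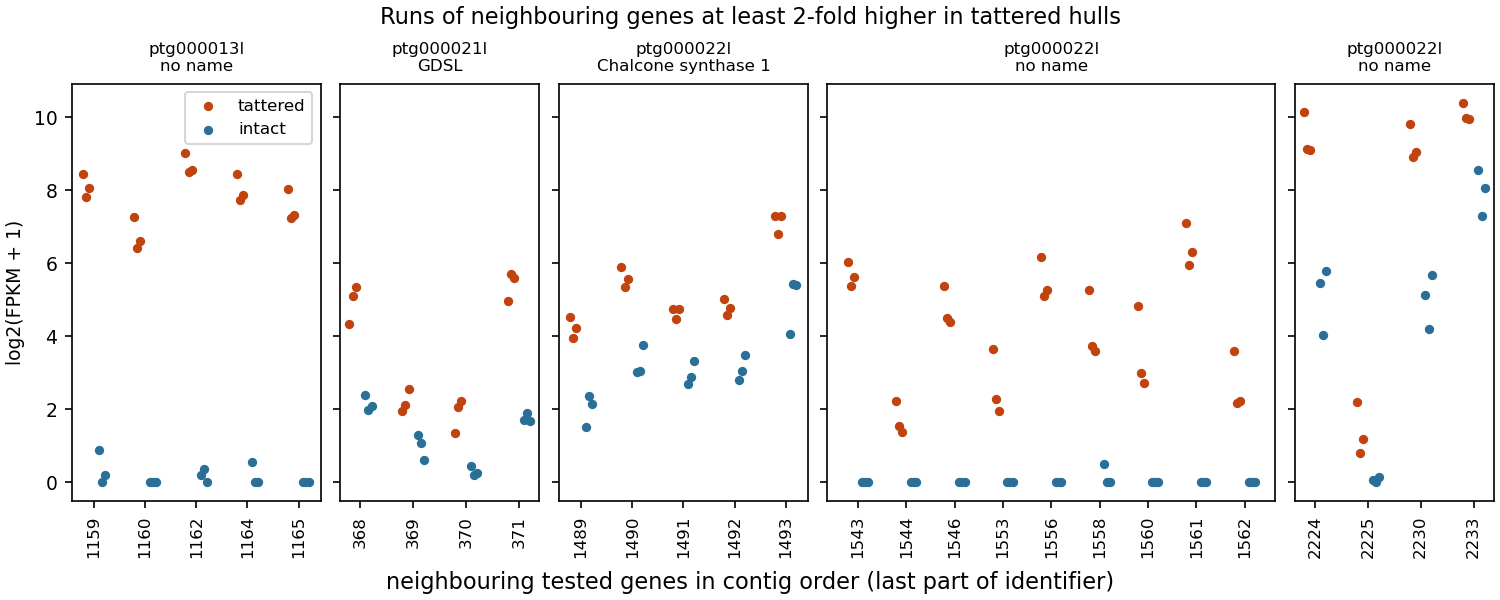
Each panel is 1 run of neighbouring tested genes at least 2-fold higher in tattered hulls, with single libraries as points on a log2(FPKM + 1) axis, tattered (orange) left of intact (blue), and genes in contig order by the last part of the identifier. The 9 short unnamed genes of the fourth panel sum to at most 0.401 FPKM in any intact library, whereas chalcone synthase genes were read in all 6 libraries.

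Cracked hulls of Lost Hills were set against their own intact hulls in the same fit, to ask where the effects differ. Of 19716 genes 307 were called in Lost Hills (1.56%), 291 higher (1.48%) and 16 lower (0.0812%), so far fewer passed than in Golden Hills. Of these, 202 were called in the same direction in Golden Hills, 65.8% of the Lost Hills calls and 6.16% of the Golden Hills calls, and 1 was called in the opposite direction. At 2-fold or more, 257 genes were higher in cracked hulls (1.3% of those tested) and 10 lower (0.0507%). In both cultivars together 170 genes were called at 2-fold or more in the same direction (0.862%), 168 of them higher, 21.2% of such genes in Golden Hills and 65.4% in Lost Hills. Of the 42 genes on in tattered and off in intact Golden Hills, 35 were also called higher in cracked hulls, and 16 reached 5 FPKM in every cracked library. The Lost Hills calls rest on the pooled spread, since 4 genes were called with only the compared groups in the fit.

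The difference of the 2 effects (tattered over intact Golden Hills, minus cracked over intact Lost Hills) was called at 196 genes (0.994%), 152 positive (0.771%) and 44 negative (0.223%). A difference of at least 1 was called at 142 genes (0.72%). TPM gave 106 positive and 105 negative differences, so the balance depends on scaling. With 0.1 FPKM added in place of 1, 75 differences were called, and with voom 49. For genes near 0 in intact hulls of both cultivars, the difference mostly sets the tattered level against the cracked level. Its size there depends on the FPKM added.

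Several suberin genes were called higher in both cultivars. Of the 15 tested, 6 were called higher in cracked hulls and 4 had a called positive difference. CYP86B1 had 5.73, 6.42 and 11 FPKM in cracked hulls, against 0, 0 and 1.91 FPKM in intact hulls of Lost Hills, a log2 fold change of 2.56, and its difference was 3.26 (adjusted p = 0.000587). The feruloyl transferase had 11.8, 9.93 and 20.7 FPKM in cracked hulls, against 0.227, 0.721 and 2.99 FPKM in intact hulls, and a difference of 3.23 (adjusted p = 0.00102). LTPG21 had 7.29, 7.94 and 12.4 FPKM in cracked hulls, against 0.0898, 0.0952 and 3.4 FPKM in intact hulls, and a difference of 4.47 (adjusted p = 0.000131). In all 3 genes intact replicate 3 was the highest intact library of Lost Hills and lay below every cracked library.

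The smallest adjusted p-values of the difference were those of MYB102, 3.01 (SE 0.18, adjusted p = 4.75e-08), and Dirigent protein 23, 4.23 (SE 0.26, adjusted p = 5.21e-08). Aquaporin TIP1-3 (evm_TU_ptg000016l_574) had a difference of 5.25 (adjusted p = 0.00102), with a log2 fold change of 0.38 in Lost Hills that was not called. GH3.6 had a difference of 3.22 and the glutathione peroxidase had 3.78, and neither was called in Lost Hills. Heat shock genes had 28 calls higher in tattered hulls, and 6 genes of the list had a called positive difference. Other genes were called higher in both: the pectate lyase had a log2 fold change of 2.98 in tattered and 3.60 in cracked hulls, and phenylalanine ammonia-lyase 3.90 in tattered and 3.64 in cracked hulls, with differences that were not called (adjusted p = 0.574 and 0.914).

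The lignin-forming anionic peroxidase (evm_TU_ptg000008l_428) ran the other way. It had 0.493, 0.422 and 0.451 FPKM in tattered hulls, against 0.165, 0.103 and 0.479 FPKM in intact hulls, which overlap. In Lost Hills it had 6.02, 15.3 and 38.7 FPKM in cracked hulls, against 1.06, 0.147 and 0 FPKM in intact hulls, and the difference was -3.40 (adjusted p = 0.00575). Of the 44 negative differences, 35 were genes called lower in tattered hulls and 9 were genes called higher in cracked hulls. The plot of both cultivars sets the named genes side by side.

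**Figure D5:**
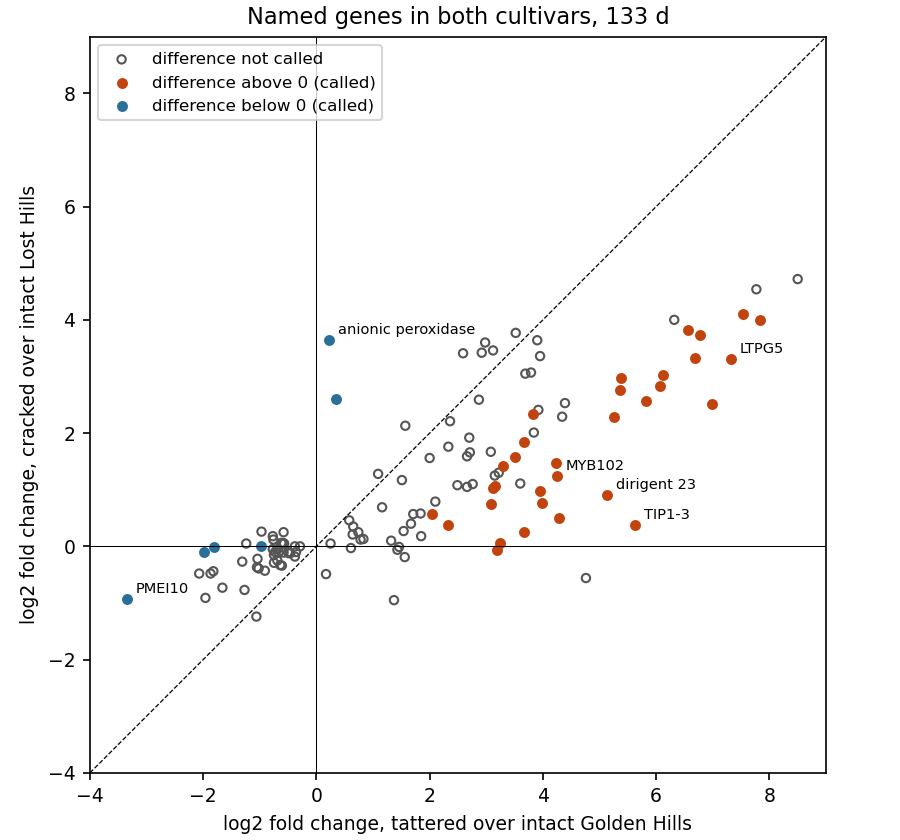
Each point is 1 of the 130 named genes, with the log2 fold change of tattered over intact Golden Hills on the x axis and of cracked over intact Lost Hills on the y axis; filled points had a called difference, orange above 0 and blue below 0, and the dashed line marks equal change. The genes were named mostly for their change in Golden Hills, and LTPG5 lies at 7.32 and 3.30 and the anionic peroxidase at 0.23 and 3.64.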

How the data were processed

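Poly-A RNA of whole hulls was sequenced as strand-marked (dUTP) libraries, per the labels' protocols. The authors deposited 1 table of FPKM values for 39783 predicted genes, and per the submitters' processing notes HISAT2 2.0.5, StringTie 1.3.3b and featureCounts 1.5.0-p3 were used. Their roles and the genome build are not given in the sources used here, and gene names are protein matches from the table. FPKM times gene length gave whole multiples for 100% of values (tolerance 0.01), from which reads were recovered for depth, lower bounds and a voom alternative.

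log2(FPKM + 1) was fitted with limma 3.58.1 (R 4.3.3; trended eBayes, 6 groups, 20 libraries) on genes that reached 1 FPKM in 3 or more libraries, with Benjamini-Hochberg adjustment over 19716 genes. On simulated data, 62.6% of genes changed 2-fold and 79.8% of those changed 4-fold were recovered. Apart from the changed genes, the simulation gave each gene the same mean and spread in all groups. Its libraries were drawn independently, with none set apart and none with reads of the other cultivar. Recovery in the real libraries was therefore not measured. Genes were named by rules: the largest called changes among all genes, per list and in the difference between cultivars, without overlap of groups, and the neighbours of the largest rise. The members and lists were chosen with earlier results of these data known. Lower bounds use 3 reads per intact library and, like shares of reads, cover counting error only. Alternatives tried were pseudocount, filter, scaling, fewer libraries, array weights, a replicate block and voom. No sequence is shown, since none was used here.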

Additional observations from a re-analysis of the deposited data

Results flagged for a closer look

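Named genes are given here whose change in tattered over intact Golden Hills hulls differed from that in cracked over intact Lost Hills hulls, by the test of the difference in the limma fit. Values are differences of log2 fold changes, Golden Hills minus Lost Hills, and a positive one means a greater rise, or a smaller fall, in tattered hulls. Cultivar and kind of split cannot be told apart.

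Among lipid genes, the difference was 4.03 for LTPG5 (evm_TU_ptg000019l_3180), 4.47 for LTPG21 and 2.41 for LTPG5 (evm_TU_ptg000022l_2035). It was 3.26 for CYP86B1, 2.60 for GPAT5, 1.46 for GPAT8, 2.09 for fatty acyl-CoA reductase 3, 3.23 for the feruloyl transferase and 1.87 for the ABCG1 transporter. GDSL esterase At1g74460 had 3.11 and GDSL esterase 3 (evm_TU_ptg000021l_371) 3.42. The CASP-like 1C3 genes had 2.76 (evm_TU_ptg000019l_2099) and 2.98 (evm_TU_ptg000017l_1728).

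Among genes of phenolic coupling, the difference was 3.38 for Laccase-7, 1.49 for Laccase-5, 2.75 for Peroxidase 4, 4.23 for Dirigent protein 23 and 1.93 for Dirigent protein 20. Among stress and transport genes it was 3.18 for the 17.8 kDa and 3.25 for the 22.0 kDa heat shock protein, 5.25 for Aquaporin TIP1-3 (evm_TU_ptg000016l_574), 2.98 for glutathione S-transferase parA and 3.78 for the glutathione peroxidase. It was 2.08 for nepenthesin-1 and 1.95 for UDP-glycosyltransferase 76B1. Among regulators and hormone enzymes it was 1.81 for ERF114, 3.01 for MYB102, 2.35 for 12-oxophytodienoate reductase 2 (evm_TU_ptg000001l_4017) and 3.22 for GH3.6. The unnamed neighbours on contig ptg000013l had 3.04 (evm_TU_ptg000013l_1160), 3.85 (evm_TU_ptg000013l_1164) and 3.41 (evm_TU_ptg000013l_1165).

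Negative differences were -2.40 for Pectinesterase inhibitor 10, -1.89 for UTP--glucose-1-phosphate uridylyltransferase 3, -1.79 for a stearoyl-ACP desaturase (evm_TU_ptg000022l_323), -0.98 for CELLULOSE SYNTHASE INTERACTIVE 3, -3.40 for the lignin-forming anionic peroxidase and -2.25 for a tubulin alpha chain (evm_TU_ptg000003l_250).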

How the results depend on the processing

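Against 3281 genes called between tattered and intact Golden Hills hulls, 1790 were called with only the compared groups in the fit, 5788 with array weights, 1725 without both libraries numbered 1, and 945 at a log2 fold change of at least 1 in either direction. Leaving out 1 library gave 1689 to 2777. For Lost Hills (307 calls) these were 4 with only the compared groups, 666 with array weights, 101 at a mean of at least 5 FPKM, and 173 to 552 leaving out 1 library. For the difference (196 calls) they were 83 with only the compared groups, 981 with array weights, 91 at a mean of at least 5 FPKM, 75 with 0.1 FPKM added, 49 with voom, and 132 to 362 leaving out 1 library. Same-numbered libraries deviated with correlations of 0.2229, 0.152 and 0.0776, not all above 0.1, so the numbers were not taken as pairs. A replicate block gave 1537 calls in Golden Hills, 0 in Lost Hills (limma; 1278 at an unadjusted p under 0.05) and 95 for the difference; intact replicate 3 correlated best with tattered replicate 2. Of the 126 named genes called, 83 were called under each of the 20 settings in which they were tested, and none of the 126 changed sign. The setting with a mean of at least 5 FPKM tested 13385 genes, and a named gene that it left out was not counted as lost. List medians near 0 did, as did the balance of calls in TPM, with 26.2% higher against 55.8%. Leaving out both libraries numbered 1, or the 91 d libraries with reads of the other cultivar, was chosen after seeing the data. The cause of these changes was not tested. Depth limits genes near 1 FPKM, which stood for about 16.1 reads.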

Other observations

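Some regulator families had calls in 1 direction. Of 1374 tested regulators in 37 families, 110 were called higher and 98 lower in tattered than in intact hulls, with 55 at least 2-fold higher and 7 at least 2-fold lower. Over all tested genes 9.29% were called higher and 7.35% lower. Factors of the mTERF family, which act on organelle gene expression, had 13 of 78 called lower and none higher (median log2 fold change -0.22). SNF2 chromatin remodellers had 7 of 27 and SET domain proteins 7 of 33 called lower, with none higher in either. Auxin response factors had 5 of 17 called lower and none higher, and BELL homeobox factors 4 of 10. LOB domain factors went the other way, with 4 of 16 called higher, each at least 2-fold. These families were picked after their values were seen.

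A gene with no name (evm_TU_ptg000024l_568, 222 bases) lies beside CYP86B1 and was picked in the same way. It had 17.7, 19.8 and 12.5 FPKM in tattered hulls and no read in intact hulls, and was called (log2 fold change 4.12, limma adjusted p = 1.15e-11).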
